A study of Mus musculus with 14 samples.

Results

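The large heat shock chaperones described here are 10 mouse genes of the HSP70, HSP90, HSP110, J-domain and HSP60 families: Hspa1a, Hspa1b, Hspa8, Hspa5, Hsph1, Hsp90aa1, Hsp90ab1, Dnaja1, Dnajb1 and Hspd1. They were taken by gene symbol, by a rule that holds no measured value. The list itself was chosen with earlier results of these data known. Of the 10 symbols, 9 had a probe, together 14 of the 55681 probes on the array, and all 9 were among the 14164 genes tested. No probe carried the symbol Hspa1b. Ts1Cje mice, a model of Down syndrome, carry part of the far end of chromosome 16 in an additional copy, and the controls (WT) were disomic littermates, all on the C57BL/6 background. The 4 groups were Ts1Cje EDL (3 arrays), WT EDL (3 arrays), Ts1Cje soleus (4 arrays) and WT soleus (4 arrays). The EDL (extensor digitorum longus) is a fast-twitch and the soleus a slow-twitch muscle of the hind limb, and each of the 14 samples was hybridised to 1 Agilent 1-colour array. None of the 9 measured genes has its probe on chromosome 16, and RNA came from muscle tissue, with no sort of cells named in the labels. The ages of the mice are not given in the sources used here, nor is it stated that each array came from a different animal, so p-values measure the spread between these samples.

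Heat shock proteins are chaperones that bind unfolded stretches of other proteins and let them fold, refold or be degraded. HSP70 proteins work in a cycle of ATP hydrolysis that J-domain proteins start and that exchange factors such as HSP110 reset, HSP90 proteins receive clients from HSP70, and HSP60 folds proteins inside mitochondria. In rats the inducible HSP70 is known to be more abundant in slow than in fast muscle, and heat, exercise and injury raise it through the transcription factor HSF1, which binds repeats of the unit GAA and its complement TTC. Misfolded proteins in the endoplasmic reticulum raise Hspa5 through another element in its promoter.

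The stretches below are the last 150 bases before the transcription start of 4 of the genes, 5′ to 3′ in the direction of transcription, from RefSeq on GRCm38.p6. They are shown because Hspa1a and Hsph1 are the 2 members that differed between the muscles, because Hspa1b is the copy of Hspa1a that the array does not name, and because Hspa5 is the member of the endoplasmic reticulum. Capitals mark a pair of heat shock units, GAANNTTC or TTCNNGAA, in the first 3 genes, and the endoplasmic reticulum stress response element in Hspa5, which is CCAAT, then 9 bases of any kind, then CCACG. The stretches lie at chr17:34972157-34972306 (minus strand) for Hspa1a, chr17:34959239-34959388 (minus) for Hspa1b, chr5:149636337-149636486 (minus) for Hsph1 and chr2:34771940-34772089 (plus) for Hspa5.
Hspa1a: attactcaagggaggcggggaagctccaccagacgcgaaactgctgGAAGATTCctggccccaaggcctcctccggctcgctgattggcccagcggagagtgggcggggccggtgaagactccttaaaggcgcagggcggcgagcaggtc
Hspa1b: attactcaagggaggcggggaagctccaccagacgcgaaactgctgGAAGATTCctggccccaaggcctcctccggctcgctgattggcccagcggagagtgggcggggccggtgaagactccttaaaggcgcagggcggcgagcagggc
Hsph1: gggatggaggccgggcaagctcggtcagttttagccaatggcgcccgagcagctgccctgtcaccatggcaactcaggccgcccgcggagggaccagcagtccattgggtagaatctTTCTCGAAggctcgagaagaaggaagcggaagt
Hspa5: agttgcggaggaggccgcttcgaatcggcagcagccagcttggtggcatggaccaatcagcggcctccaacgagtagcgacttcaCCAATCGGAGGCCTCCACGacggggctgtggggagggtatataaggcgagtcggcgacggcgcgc

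The promoters of Hspa1a and Hspa1b were identical at 247 of the 250 bases before the start, and 1 of the 3 differences falls in the printed stretch. Promoter sequences were at hand for 7 of the 10 genes. A gene was counted where any of its starts had the match in the 250 bases before it. The pair GAANNTTC, which reads the same on both strands, was found in Hspa1a, Hspa1b, Dnaja1 and Hspd1, and in 7.73% of 27025 mouse genes. Not every start of Dnaja1 and Hspd1 had a match. The pair TTCNNGAA, also the same on both strands, was found in Hsph1 and Hspd1, and in 8.11% of genes. A run of 3 alternating units, each 2 bases from the next and on either strand, which overlaps both pairs, was found in Hspd1 and in 0.514% of genes. The element in capitals for Hspa5 was found on either strand in 0.13% of genes and in no other member with a sequence. These matches describe letters in a window and not binding.

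Levels are log2 of the processed signal minus the log2 75th percentile of the array, so that 0 is the signal of a probe at that percentile. The arrays differed in brightness, with a 75th percentile between 68.7 and 159 intensity units and between 41.3% and 52.9% of probes well above background. The 9 genes were well above background on 14 of 14 arrays, and no probe was saturated on any. The 6 EDL arrays and soleus Ts1Cje replicate 1 were on 1 slide and the other 7 soleus arrays on another, so that muscle and slide are nearly the same split. General markers of skeletal muscle, 6 of 6 measured, were high, with a summed level between 12.03 and 12.17 on Ts1Cje EDL, 11.97 and 12.19 on WT EDL, 11.79 and 11.95 on Ts1Cje soleus and 11.87 and 11.99 on WT soleus arrays. Slow fibre markers (6 of 6 measured) summed to between 5.33 and 8.10 on Ts1Cje EDL and 4.93 and 8.61 on WT EDL arrays, against 12.46 to 12.99 on Ts1Cje soleus and 12.37 to 12.67 on WT soleus arrays. As a check of the genotype labels, 20 of the 24 genes called higher and 0 of the 10 called lower in Ts1Cje soleus had their probe on chromosome 16, where 453 tested genes lie. In the EDL the 1 gene called was not on chromosome 16.

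**Figure D1:**
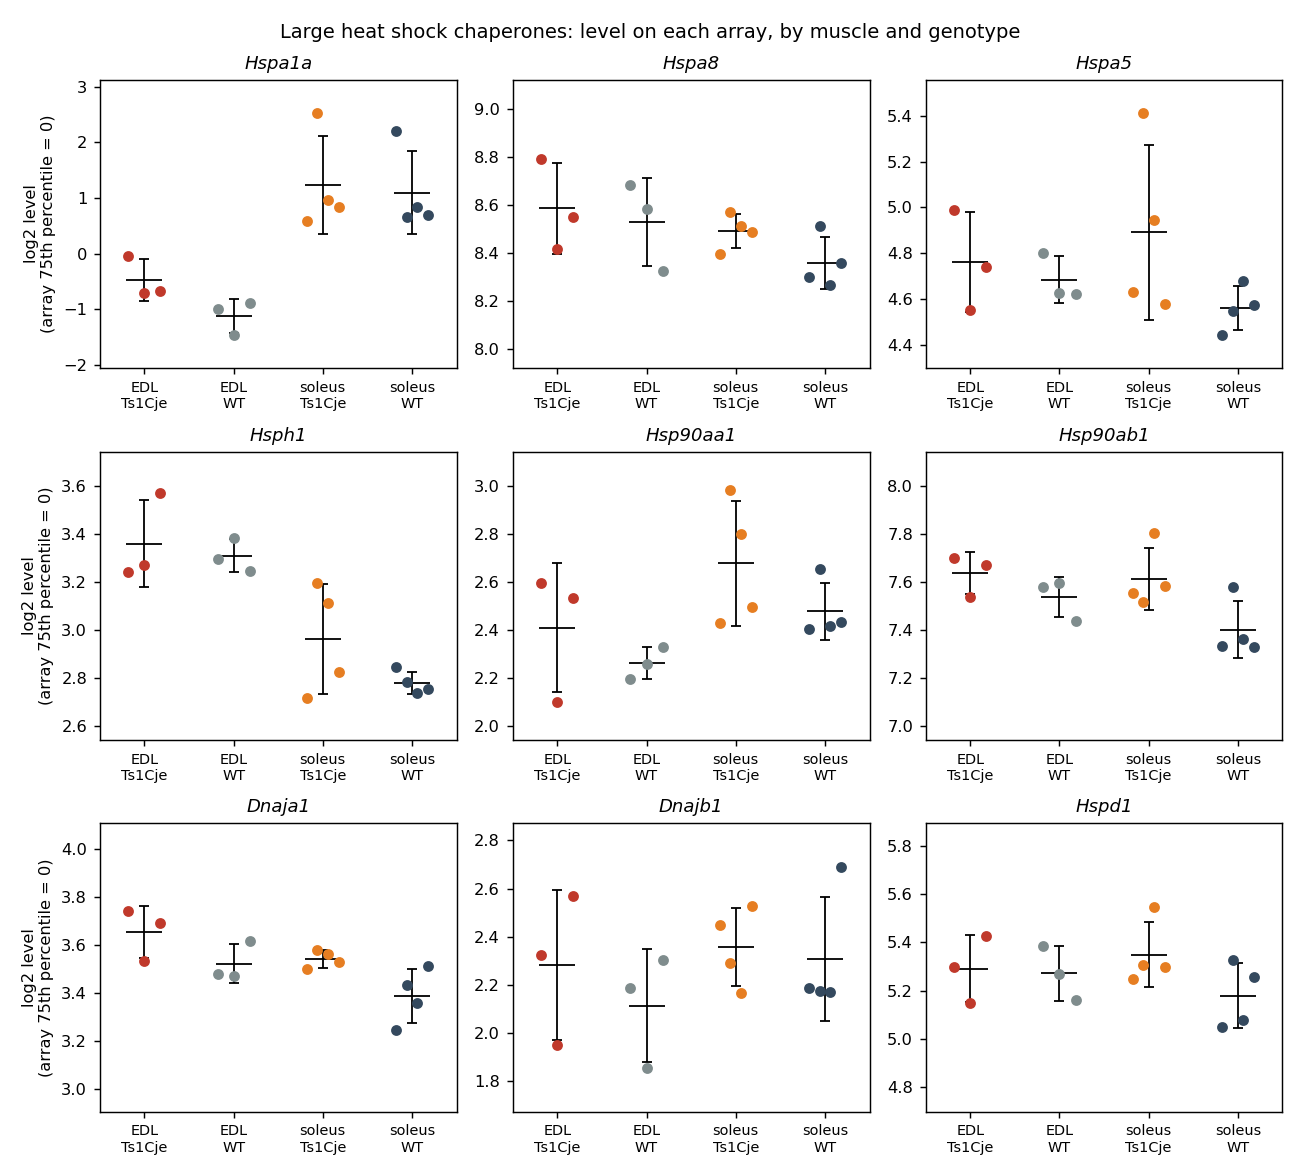
Log2 level of each of the 9 measured chaperone genes (y axis, array 75th percentile = 0) on each of 14 arrays in 4 groups (x axis). Points are arrays in order of replicate number, the long bar is the group mean and the whisker is 1 SD (n = 3 EDL arrays or 4 soleus arrays a group). Hspa1a is lower on all 6 EDL arrays than on any of the 8 soleus arrays, and Hsph1 is higher on all 6 EDL arrays.

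The first comparison asked which members differed between Ts1Cje and WT muscles. In neither muscle did any member pass the test: 0 of 9 were called in the EDL, where 0.00706% of all genes were, and 0 of 9 in the soleus, where 0.24% of all genes were (limma, two-sided, Benjamini-Hochberg adjusted p under 0.05 over 14164 genes). At an unadjusted p under 0.05 there were 0 of 9 in the EDL and 1 of 9, Hsp90ab1, in the soleus. All 9 fitted log2 differences were above 0 in each muscle, apart from alternative settings in which Hspd1 (-0.02, normexp) and Hspa8 (-0.01, quantile normalization) in the EDL and Hspa8 in the soleus (-0.04, mean of its probes) lay below 0. Leaving out 1 array also turned some of these signs, none with a call. Their median was 0.10 in the EDL, against 0.01 over all genes, and 0.17 in the soleus, against 0.06 over all genes, and 52.1% and 60.3% of all genes had a value above 0 in those comparisons. The members are not independent of each other within an array, as described further on.

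Among the HSP70 proteins, Hspa1a encodes the inducible form of the cytosol, which is low in unstressed cells. Its level in the EDL was -0.04, -0.72 and -0.68 on Ts1Cje arrays, against -1.01, -1.46 and -0.88 on WT arrays. The 3 Ts1Cje arrays lay above the 3 WT arrays, with replicate 1 standing highest, and Hspa1a was the only member whose groups did not overlap in the EDL, as for 5.6% of all genes. The difference was 0.64 ± 0.49 (log2, SE, adjusted p = 0.9998 by limma), with a 95% interval of -0.42 to 1.69 that includes 0. In the soleus its level was 0.59, 2.53, 0.95 and 0.84 on Ts1Cje arrays, against 2.20, 0.65, 0.84 and 0.70 on WT arrays. One array of each genotype stood far above the other 3, the groups overlapped, and the difference was 0.13 ± 0.42 (adjusted p = 0.911 by limma). Without soleus Ts1Cje replicate 2 the fitted difference was -0.30, and without soleus WT replicate 1 it was 0.50, neither passing the test.

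Hspa8 encodes the constitutive HSP70 of the cytosol. Its level in the EDL was 8.79, 8.42 and 8.55 on Ts1Cje arrays, against 8.68, 8.58 and 8.33 on WT arrays. In the soleus it was 8.40, 8.57, 8.51 and 8.49 on Ts1Cje arrays, against 8.30, 8.51, 8.27 and 8.36 on WT arrays. The genotypes overlapped in both muscles, and the differences were 0.06 ± 0.13 in the EDL and 0.13 ± 0.11 in the soleus (log2, SE). Hspa8 had 3 probes, all kept, which gave 0.13, 0.12 and -0.38 for the soleus difference, none called among the probes. The probe at -0.38 lies nearest the 5′ end of the gene of the 3 (chr9:40611142-40611201 of mm9, plus strand), and why the probes disagree was not tested.

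Hspa5, also called BiP, is the HSP70 of the endoplasmic reticulum and the classical readout of the unfolded protein response. Its level in the soleus was 4.63, 5.41, 4.94 and 4.58 on Ts1Cje arrays, against 4.44, 4.55, 4.68 and 4.57 on WT arrays. Ts1Cje replicates 2 and 3 lay above every WT array and replicates 1 and 4 among them, and the difference, 0.33 ± 0.17, was the largest of the 9 in that muscle and not called (adjusted p = 0.408 by limma). Leaving out Ts1Cje replicate 2 gave 0.16. In the EDL its level was 4.99, 4.55 and 4.74 on Ts1Cje arrays, against 4.80, 4.63 and 4.62 on WT arrays, with overlap and a difference of 0.08 ± 0.19.

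Hsph1 encodes an HSP110, which exchanges the nucleotide of HSP70. In the soleus its level was 2.72, 3.20, 3.11 and 2.83 on Ts1Cje arrays, against 2.85, 2.79, 2.74 and 2.76 on WT arrays. Ts1Cje arrays were spread more widely (SD 0.23, n = 4) than WT arrays (SD 0.05, n = 4), with replicates 2 and 3 above and replicate 1 below all of them, and the difference was 0.18 ± 0.12. In the EDL its level was 3.24, 3.27 and 3.57 on Ts1Cje arrays, against 3.30, 3.38 and 3.25 on WT arrays. These overlapped, and the difference was 0.05 ± 0.13.

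The HSP90 proteins of the cytosol help kinases, steroid receptors and myosin to reach their folded form. Hsp90ab1, the constitutive form, had levels of 7.55, 7.52, 7.80 and 7.58 on Ts1Cje soleus arrays, against 7.33, 7.58, 7.36 and 7.33 on WT soleus arrays. WT replicate 2 was the only WT array within the range of the Ts1Cje arrays. The difference was 0.21 ± 0.10 (log2, SE), the smallest p of the 9 members at 0.0453 unadjusted, and 0.377 after adjustment over all genes in limma. In the EDL its level was 7.70, 7.54 and 7.67 on Ts1Cje arrays, against 7.58, 7.59 and 7.44 on WT arrays, and the difference was 0.10 ± 0.11.

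Hsp90aa1 encodes the stress-inducible HSP90. In the EDL its level was 2.60, 2.10 and 2.53 on Ts1Cje arrays, against 2.20, 2.26 and 2.33 on WT arrays. In the soleus it was 2.43, 2.98, 2.80 and 2.50 on Ts1Cje arrays, against 2.40, 2.65, 2.42 and 2.43 on WT arrays. Ts1Cje arrays spread on both sides of the WT arrays in the EDL and overlapped their upper part in the soleus, with differences of 0.15 ± 0.16 and 0.20 ± 0.14 in those muscles.

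The J-domain proteins Dnaja1 and Dnajb1 deliver clients to HSP70 and start its ATP hydrolysis. Dnaja1 had levels of 3.74, 3.53 and 3.69 on Ts1Cje EDL arrays, against 3.48, 3.47 and 3.62 on WT EDL arrays. In the soleus its level was 3.50, 3.58, 3.56 and 3.53 on Ts1Cje arrays, against 3.25, 3.44, 3.36 and 3.51 on WT arrays. The genotypes overlapped through 1 low Ts1Cje array in the EDL, replicate 2, and 1 high WT array in the soleus, replicate 4. The differences were 0.13 ± 0.10 in the EDL and 0.15 ± 0.09 in the soleus.

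Dnajb1, which also feeds back on HSF1, had levels of 2.32, 1.95 and 2.57 on Ts1Cje EDL arrays, against 2.19, 1.85 and 2.30 on WT EDL arrays. In the soleus its level was 2.45, 2.29, 2.16 and 2.53 on Ts1Cje arrays, against 2.19, 2.17, 2.17 and 2.69 on WT arrays. The groups overlapped, soleus WT replicate 4 was the highest of all 14 arrays, and the differences were 0.17 ± 0.19 in the EDL and 0.05 ± 0.16 in the soleus.

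Hspd1 encodes HSP60, the chaperonin of the mitochondrial matrix. Its level in the EDL was 5.30, 5.15 and 5.43 on Ts1Cje arrays, against 5.39, 5.27 and 5.16 on WT arrays. In the soleus it was 5.25, 5.31, 5.55 and 5.30 on Ts1Cje arrays, against 5.05, 5.33, 5.08 and 5.26 on WT arrays. The arrays of the genotypes overlapped, and the differences were 0.02 ± 0.12 in the EDL and 0.17 ± 0.11 in the soleus.

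Where same-numbered EDL arrays are taken as pairs, as their shared deviations allow, 3 of 9 members were higher in Ts1Cje in 3 of 3 pairs, against 11.1% of all genes. The differences within pairs were 0.97, 0.75 and 0.20 for Hspa1a, 0.26, 0.06 and 0.08 for Dnaja1, and 0.14, 0.10 and 0.27 for Dnajb1. With the pairs as a block on the EDL arrays none of the 9 passed the test (adjusted p = 0.9997 for each of these 3 by limma).

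In the soleus no member's genotypes were free of overlap, as against 7.89% of all genes, and in the EDL 1 of 9 was. The 95% intervals of the genotype differences bound what these arrays could leave unseen. Apart from Hspa1a, the upper limits lay between 0.28 and 0.58 in the EDL and between 0.34 and 0.69 in the soleus (log2). Those of Hspa1a were 1.69 and 1.05. The lower limits, again apart from Hspa1a, lay between -0.33 and -0.08 in the EDL and between -0.30 and 0.005 in the soleus. For Hspa1a they were -0.42 and -0.78. The difference between the genotype effects, EDL minus soleus, was called for 0 of 9 members and for 0 of all genes (0%) by limma, with 0 of 9 at an unadjusted p under 0.05 and values between -0.25 (Hspa5) and 0.51 ± 0.64 (Hspa1a). For the mean of the effects in both muscles 0 of 9 were called, against 0.261% of all genes, and 0 of 9 had an unadjusted p under 0.05. That mean lay above 0 for all 9, with a median of 0.14 (0.03 over all genes) and a lowest adjusted p of 0.540, for Dnaja1.

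Of the marker lists given here, 0 of 7 macrophage, 0 of 3 neutrophil, 0 of 5 red blood cell and 0 of 4 adipocyte markers were called between genotypes in either muscle by limma, and their summed levels are given as values. The summed level of 7 macrophage markers was 4.15 to 4.27 on Ts1Cje EDL arrays, against 3.76 to 4.00 on WT EDL arrays. In the soleus, 6 fast fibre markers summed to 11.73 to 11.92 on Ts1Cje arrays, against 11.97 to 12.30 on WT arrays, and 3 of the 6 were called lower. Soleus red blood cell markers (5 of 5 measured) summed to 7.34 to 7.58 on Ts1Cje arrays, against 6.75 to 7.01 on WT arrays. Adipocyte markers (4 of 5, Lep not being well above background) reached 6.60 to 7.04 on Ts1Cje soleus arrays, against 6.35 to 6.60 on WT soleus arrays, and these ranges met. That sum was mostly Fabp4, at 6.55 to 6.94 on Ts1Cje and 6.32 to 6.49 on WT soleus arrays. The mean log2 level of the 4 markers overlapped between genotypes, at 1.50 to 2.77 against 0.68 to 2.46. Of the neutrophil markers S100a8 and Ngp were not well above background in any whole group, and the other 3 summed to 0.10 to 0.39 on Ts1Cje EDL arrays, against 0.45 to 0.96 on WT EDL arrays, with overlap in the soleus. These 3 did not share a direction in the EDL, where 1 of 3, Ly6g, had a difference above 0. S100a9 was -0.20 on WT EDL replicate 3, against -3.04 and -1.90 on the other WT EDL arrays. The part of these cells in the chaperone values was not tested, and in muscle tissue fewer cells of a type and less RNA per cell cannot be told apart.

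**Figure D2:**
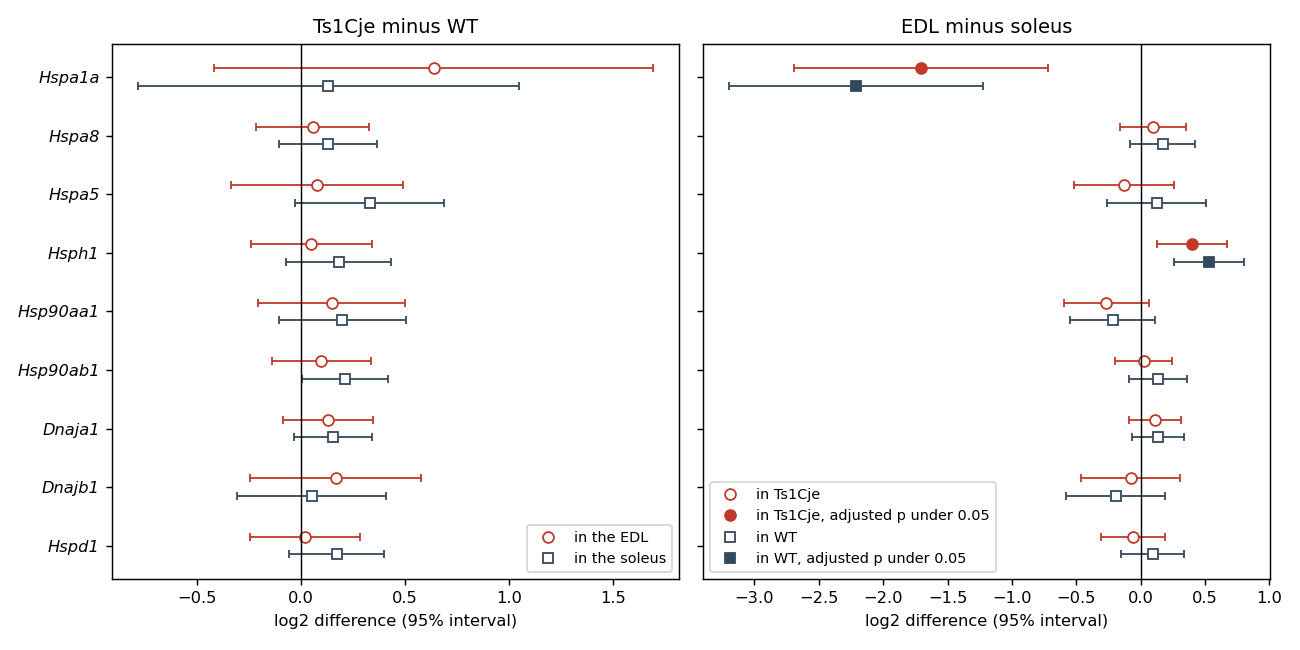
Log2 differences with 95% intervals (x axis, limma, 14 arrays) for each gene (y axis). Left, Ts1Cje minus WT in the EDL (circles) and in the soleus (squares). Right, EDL minus soleus in Ts1Cje (circles) and in WT (squares). Filled symbols passed an adjusted p under 0.05, which only Hspa1a (-1.71 and -2.21) and Hsph1 (0.40 and 0.53) did, in the muscle comparison.

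The second comparison asked which members differed between the fast EDL and the slow soleus. Hspa1a was lower in the EDL and Hsph1 higher, in both genotypes. In Ts1Cje mice 2 of 9 members were called, against 30.2% of all genes, and in WT mice 2 of 9, against 29.2% of all genes, so the share called among the chaperones was not above that of the genes at large. The groups did not overlap for 2 of 9 members in Ts1Cje (Hsph1 and Hspa1a), against 35.4% of all genes, and for 3 of 9 in WT (Hsph1, Hspa1a and Hsp90aa1), against 38.5%.

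Hspa1a averaged -0.48 ± 0.38 in Ts1Cje EDL (SD, n = 3) and 1.23 ± 0.88 in Ts1Cje soleus (SD, n = 4). The difference was -1.71 ± 0.46 (log2, SE), a level 3.27-fold lower in the EDL (adjusted p = 0.0136 by limma). In WT mice it averaged -1.12 ± 0.31 in the EDL (SD, n = 3) and 1.10 ± 0.74 in the soleus (SD, n = 4). Here the difference was -2.21 ± 0.46, 4.64-fold lower in the EDL (adjusted p = 0.00310 by limma). Under normexp background correction the differences were smaller, -1.34 in Ts1Cje and -1.45 in WT. Both stayed called (adjusted p = 0.0172 and 0.0124 by limma). The highest EDL array, Ts1Cje replicate 1 at -0.04, lay below the lowest soleus array, Ts1Cje replicate 1 at 0.59, and the call held when each of the 7 arrays of either comparison was left out in turn. The order of the group means was Ts1Cje soleus, WT soleus, Ts1Cje EDL, WT EDL, and the neighbours in the soleus lay within their spread. In the EDL the genotype means were farther apart than either SD and the arrays did not overlap, although the test was not passed.

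With the slide as a block, where the muscles are compared through soleus Ts1Cje replicate 1 alone, the Hspa1a difference was -1.07 in Ts1Cje (adjusted p = 0.320 by limma) and -1.36 in WT (adjusted p = 0.301). Within the slide that held the EDL arrays and that 1 soleus array it was -1.07 (adjusted p = 0.110). The direction stayed and the test was not passed, with 1 soleus array on that slide. Fast fibre markers (6 of 6 measured) summed to 13.46 to 13.80 on Ts1Cje EDL and 13.37 to 13.93 on WT EDL arrays, against 11.73 to 11.92 on Ts1Cje soleus and 11.97 to 12.30 on WT soleus arrays, and their part in the difference was not tested.

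Hsph1 averaged 3.36 ± 0.18 in Ts1Cje EDL (SD, n = 3) and 2.96 ± 0.23 in Ts1Cje soleus (SD, n = 4). The difference was 0.40 ± 0.13 (log2, SE), 1.32-fold higher in the EDL (adjusted p = 0.0310 by limma). In WT mice it averaged 3.31 ± 0.07 in the EDL (SD, n = 3) and 2.78 ± 0.05 in the soleus (SD, n = 4), a difference of 0.53 ± 0.13, or 1.44-fold (adjusted p = 0.00743 by limma). All 6 EDL arrays lay above all 8 soleus arrays, although EDL Ts1Cje replicate 1 at 3.24 and soleus Ts1Cje replicate 2 at 3.20 nearly met.

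The 2 Hsph1 probes lie at chr5:150419744-150419803 and chr5:150420110-150420169 of mm9, both on the minus strand. The second probe, not used for the gene, gave 0.48 in Ts1Cje and 0.45 in WT, with adjusted p = 0.0315 and 0.0426 over all kept probes in limma. With the slide as a block the gene's difference was 0.64 in Ts1Cje (adjusted p = 0.0279 by limma) and 0.86 in WT (adjusted p = 0.0255). Within the slide of the EDL arrays it was 0.64 in Ts1Cje and was not called. These values compare the muscles through soleus Ts1Cje replicate 1 alone, which had the lowest Hsph1 level of the soleus arrays (2.72). No WT soleus array was on that slide, so the WT value rests on that array too. In Ts1Cje the Hsph1 call depended on the processing and on single arrays. It held in 3 of 9 settings other than leaving out an array, the slide block among them. It was lost under normexp background correction (0.24, adjusted p = 0.326), under quantile normalization (0.27, adjusted p = 0.113), without the filter on dim probes (0.40, adjusted p = 0.0823) and with only the groups compared (0.40, adjusted p = 0.111). It was also lost without EDL Ts1Cje replicate 3 (0.29, adjusted p = 0.125), without soleus Ts1Cje replicate 1 (0.32, adjusted p = 0.0714) or without soleus Ts1Cje replicate 4 (0.35, adjusted p = 0.0724), and it was lost with the replicate number as a block across muscles (0.37, adjusted p = 0.0656).

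The other 7 members were not called between muscles. Hsp90aa1 was lower on the 3 WT EDL arrays than on any WT soleus array, with a mean of 2.26 ± 0.07 (SD, n = 3) against 2.48 ± 0.12 (SD, n = 4) and a difference of -0.22 ± 0.15 (adjusted p = 0.312 by limma). In Ts1Cje its difference was -0.27 ± 0.15 (adjusted p = 0.206). Hspa8, Dnaja1, Hsp90ab1, Dnajb1, Hspd1 and Hspa5 had differences between -0.13 and 0.11 in Ts1Cje and between -0.19 and 0.17 in WT. For Hspa8 in Ts1Cje the direction changed with the setting, its difference being 0.09 as reported and -0.38 under quantile normalization (adjusted p = 0.0187 by limma). It was also below 0 under normexp background correction (-0.09) and without EDL Ts1Cje replicate 1 (-0.01), called in neither. The means of the 4 groups spanned 0.17 to 0.42 for these 7 members, against an SD within groups of 0.09 to 0.24, while they spanned 2.35 for Hspa1a (SD within groups 0.67) and 0.58 for Hsph1 (SD within groups 0.15).

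The Hspa1a probe lies at chr17:35107117-35107176 of mm9, on the minus strand, and is annotated by the files to the transcript of that gene. Because Hspa1a and Hspa1b are near-identical copies, the share of its signal that comes from each was not tested. Dnaja1 and Hsp90aa1 each had a second probe that was well above background on 4 and on 0 of 14 arrays and was left out.

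Single arrays differed from their group in ways that several members shared. Soleus Ts1Cje replicate 2 was the highest of its group for 6 of 9 members, by 1.30 above the group mean for Hspa1a, 0.52 for Hspa5, 0.31 for Hsp90aa1 and 0.23 for Hsph1. Soleus Ts1Cje replicate 1 was the lowest of that group for 6 of 9. In the EDL, Ts1Cje replicate 2 was below its group mean for 9 of 9 members and the lowest for 8 of 9, while 42.6% of all genes were above the group mean on that array. Ts1Cje replicate 1 was the highest for 6 of 9. Above the group mean were 6 of 9 members and 49.1% of all genes on soleus Ts1Cje replicate 2. On soleus Ts1Cje replicate 1 these were 1 of 9 and 50.3%, and on EDL Ts1Cje replicate 1 they were 8 of 9 and 51.3%. The shares of all genes highest or lowest on an array were not computed. Soleus Ts1Cje replicate 2 was also the brightest array, with a 75th percentile of 159 units and 52.9% of probes well above background, and the part of brightness in these deviations was not tested.

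**Figure D3:**
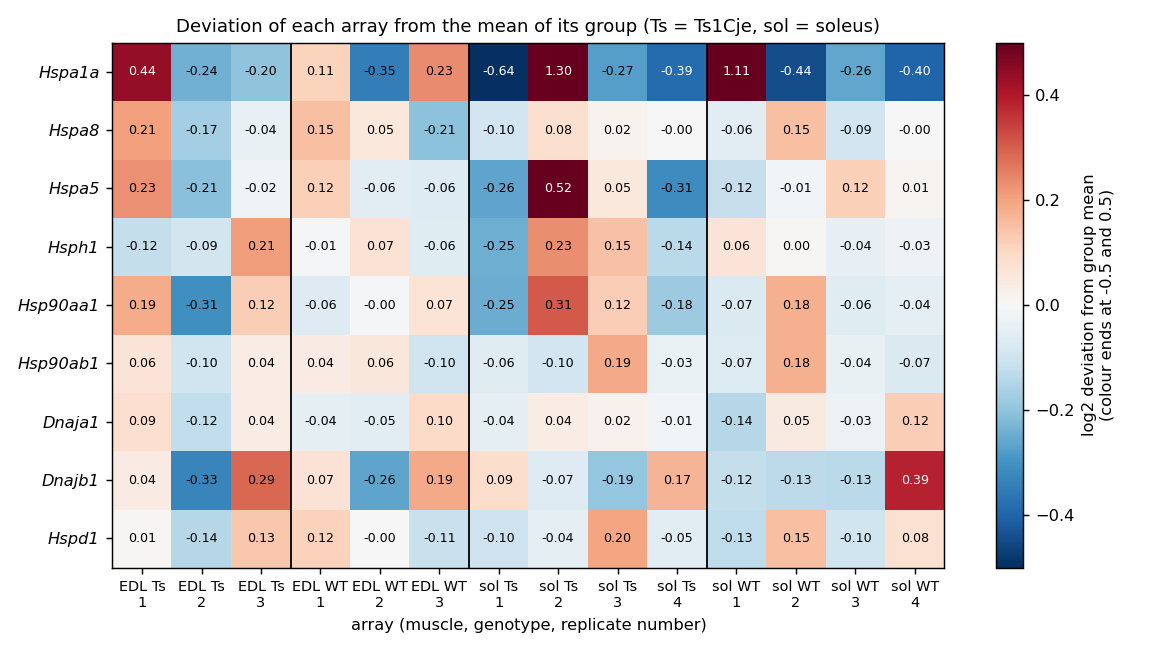
Deviation of each array (columns, by group and replicate number) from the mean of its group, in log2, for each gene (rows). Red is above and blue below the group mean, and the number in each cell is the deviation. The column of EDL Ts1Cje replicate 2 is below 0 throughout, and soleus Ts1Cje replicate 2 stands out for Hspa1a (1.30) and Hspa5 (0.52).

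Across the 14 arrays, with each group's mean removed, the 36 pairs of members had a median Pearson r of 0.33, against 0.01 for all pairs of tested genes. Of the 36 pairs 28 were above 0, and 11 were above 0.5, which is 30.6%, against 9.66% of all pairs. These are descriptions, since the values of a pair share the array, its labelling and its scaling. The closest pair was Hsp90ab1 and Hspd1 (r = 0.81, Spearman rho = 0.78), followed by Hspa5 and Hsp90aa1 (r = 0.78, rho = 0.71). Hspa1a had r = -0.32 with Hsp90ab1, -0.28 with Hspd1, -0.10 with Dnajb1, -0.08 with Dnaja1 and 0.15 with Hspa8. Its r was 0.44 with Hsph1, 0.46 with Hsp90aa1 and 0.60 with Hspa5 (rho = 0.42). Without soleus Ts1Cje replicate 2 and soleus WT replicate 1, its r was 0.03 with Hsph1, 0.22 with Hspa8 and 0.61 with Hspa5. The group means removed were still those of all 14 arrays, so the left-out arrays still act on these values. With the mean deviation of the 9 members, Hsp90aa1 (r = 0.88), Hspa5 (0.85) and Hspa1a (0.74) were closest, and Hsp90ab1 (0.16) and Dnajb1 (0.17) were farthest. Each member is itself part of that mean, to which Hspa1a contributes the widest deviations.

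The 5 genes outside the list that were most like the mean deviation of the members were Pdcd6ip, Spag9, Ank, Limd1 and Igf1r, with r between 0.916 and 0.924 over 14 arrays. Without the 2 arrays farthest from the median of the members' mean, r for these 5 was between 0.822 and 0.899. The group means were not taken anew for that, so the left-out arrays still act on it. Among lists chosen for their link to the pathway, the mean deviation of 26 HSF1 and heat shock response partners followed that of the members with r = 0.89, and that of 28 HSP90 and HSP70 cochaperones with r = 0.85. These 2 lists share Stip1, Bag3, Chordc1 and Hspa4, so their values are not independent. The list of the endoplasmic reticulum reached 0.62, the immediate early genes 0.41, the mitochondrial chaperones and proteases 0.31 and the cytosolic chaperonin TRiC 0.15. Cell type markers lay between -0.33 (fibroblast) and 0.29 (slow fibre).

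Of the 173 list genes set beside Hspa1a, the one closest to it was Atf3, a transcription factor induced by many stresses, picked here after its values were seen. Next came Ly6g, listed as a neutrophil marker, at r = 0.89. The other measured neutrophil markers, S100a9 and Camp, had r = -0.29 and 0.10 with Hspa1a. Atf3 had levels of 1.28, -0.49 and 0.83 on Ts1Cje EDL arrays, against -0.41, -1.41 and -0.31 on WT EDL arrays. In the soleus it had -0.14, 2.67, 0.53 and 0.28 on Ts1Cje arrays, against 1.49, -0.11, -0.02 and 0.01 on WT arrays. The 2 soleus arrays that were high for Hspa1a, Ts1Cje replicate 2 and WT replicate 1, were the 2 highest soleus arrays for Atf3. With group means removed, r was 0.93 and rho 0.82 over 14 arrays. Without those 2 arrays r was 0.85, with the group means still those of all 14 arrays. Atf3 itself was not called between genotypes, with differences of 1.25 ± 0.69 in the EDL and 0.49 ± 0.59 in the soleus (log2, SE, adjusted p = 0.9998 and 0.735 by limma).

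**Figure D4:**
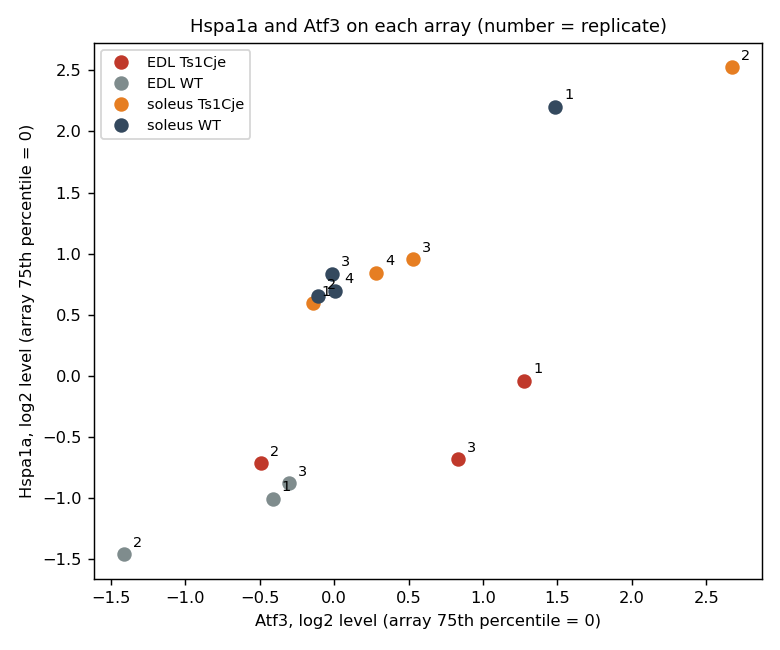
Log2 level of Hspa1a (y axis) against that of Atf3 (x axis) on each of 14 arrays (array 75th percentile = 0), coloured by group and numbered by replicate. Soleus Ts1Cje replicate 2 (2.67, 2.53) and soleus WT replicate 1 (1.49, 2.20) stand above the other soleus arrays for both genes, and EDL arrays lie lower for Hspa1a at similar Atf3 levels.

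The partners of the chaperones were described by 6 lists without the members. Stip1, Bag3, Chordc1 and Hspa4 stand both among the HSF1 and heat shock response partners and among the cochaperones, and are counted in each. Between genotypes 0 genes of any of the 6 lists were called in either muscle by limma. The median difference of the HSF1 and heat shock response partners was 0.02 in the EDL and 0.15 in the soleus, that of the cochaperones 0.00 and 0.14, and that of the endoplasmic reticulum genes 0.01 and 0.10, against 0.01 and 0.06 over all genes. The mitochondrial chaperones and proteases had medians of 0.00 and 0.03. TRiC genes had medians of 0.01 and -0.06 and the immediate early genes 0.20 and -0.08 in those comparisons.

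Between muscles in WT, 7 of 26 HSF1 and heat shock response partners rose and 6 fell in the EDL, against 18.8% of all genes called higher and 10.4% called lower. The 2 of smallest p were Hspa2, an HSP70 known best from testis, and Cacybp, a partner of ubiquitin ligases. Hspa2 averaged 0.42 in WT EDL and 1.94 in WT soleus, 2.87-fold lower in the EDL (-1.52 ± 0.17, adjusted p = 4.64e-05 by limma). Cacybp averaged 3.30 in WT EDL and 2.81 in WT soleus (0.49 ± 0.08, adjusted p = 0.000948).

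Of 28 cochaperones 10 rose and 4 fell in WT EDL. Unc45b, the chaperone that folds myosin together with HSP90, averaged 3.17 in WT EDL and 2.19 in WT soleus, 1.97-fold higher in the EDL (adjusted p = 2.53e-05 by limma). Ppid, the HSP90-binding cyclophilin, averaged 3.63 in WT EDL and 2.80 in WT soleus, 1.78-fold higher in the EDL (adjusted p = 0.000247).

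Of 31 measured genes of the endoplasmic reticulum and unfolded protein response (33 listed), 8 rose and 3 fell in WT EDL, while Hspa5 itself did not pass the test (0.12 ± 0.18). Sil1, the nucleotide exchange factor of Hspa5, was 1.81-fold higher in WT EDL than in WT soleus (adjusted p = 0.00163 by limma), and Syvn1, a ubiquitin ligase of the endoplasmic reticulum, 1.38-fold (adjusted p = 0.00180).

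Of 16 mitochondrial chaperones and proteases 3 rose and 0 fell in WT EDL. Dnajc19, a J-domain protein of the inner mitochondrial membrane, was 2.32-fold higher in WT EDL (adjusted p = 0.000703 by limma) and Spg7, a subunit of a mitochondrial protease, 1.30-fold (adjusted p = 0.00306). Of the 8 TRiC subunits, which fold actin and tubulin, 2 rose and 0 fell, Cct5 by 1.50-fold (adjusted p = 0.000163) and Cct7 by 1.34-fold (adjusted p = 0.00295), and 8 of 8 lay above 0, as did 54.6% of all genes. Of 16 measured immediate early genes (24 listed) 2 rose, Nr4a1 by 3.90-fold (adjusted p = 0.00107) and Gadd45b by 2.63-fold (adjusted p = 0.00415), and 3 fell.

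In Ts1Cje mice the calls between EDL and soleus numbered 7 higher and 7 lower of 26 HSF1 and heat shock response partners, 6 and 5 of 28 cochaperones, 5 and 5 of 31 endoplasmic reticulum genes, 3 and 0 of 16 mitochondrial genes, 3 and 0 of 8 TRiC genes, and 2 and 1 of 16 immediate early genes, against 17.6% of all genes higher and 12.6% lower. The 12 genes named for WT had the same direction in Ts1Cje, and each was called there, with Hspa2 at -1.86 and Nr4a1 at 2.25 (log2).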

How the data were processed

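Total RNA of 14 muscle samples (25 ng each) was labelled with Cy3 per the labels' protocols. The authors extracted the spots with Agilent Feature Extraction; the file headers name version 11.5.1.1, the submitters' processing notes 9.1. The deposited gProcessedSignal is an intensity with background subtracted, not normalized between arrays, per the file headers; other deposited columns of 0 and 1 mark spots that are outliers, saturated or well above background. The authors' deposited table holds log2 values scaled to the 75th percentile and centred per probe.

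Here log2 intensities were set against each array's 75th percentile over 59305 spots that are not controls. Probes were used (25183) where 1 or more groups had them well above background on each array, and the brightest used probe, by its mean, stood for a gene. Symbols came from the deposited table, with 2152 of 33822 updated through RefSeq. limma 3.58.1 (R 4.3.3) was fitted with a mean for each group over the 14 arrays and Benjamini-Hochberg adjustment over 14164 genes and a gene called at an adjusted p under 0.05. On simulated data the fit was checked to recover known changes.

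The members and lists were chosen with earlier results of these data known. Named genes were all members, up to 2 called genes of smallest p per list (Ts1Cje against WT, and EDL against soleus in WT) and the 5 genes most like the members' mean. Alternatives were normexp background correction with an offset of 50, quantile normalization, the authors' table, no filter, probe means, the replicate number or slide as a block, fits of fewer groups, and leaving out each array. Marker levels are log2 of summed linear levels.

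Same-numbered arrays of the EDL genotypes deviated together (r = 0.40, 0.12 and 0.31), as did same-numbered WT arrays of the muscles (r = 0.51, 0.41 and 0.33), so the replicate numbers pair these arrays by the data alone. The series' design names pairs of littermates without tying replicate numbers to them. Those of the soleus genotypes (r between -0.29 and 0.01) and of the Ts1Cje muscles (r between -0.16 and 0.12) share only a number.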

Additional observations from a re-analysis of the deposited data

Results flagged for a closer look

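In 4 of 18 groups of 4 soleus arrays, 1 array lay farther from the others than Dixon's 95% limit allows. All 4 were WT. Chance gives this in about 1 of 20 independent groups, but the 18 groups share arrays and members and are not independent. The share over all genes was not computed, so the count is no result about the members. Soleus WT replicate 1 had an Hspa1a level of 2.20, against 0.84 on the nearest WT soleus array. Soleus WT replicate 2 had an Hsp90aa1 level of 2.65, against 2.43 on the nearest array, and an Hsp90ab1 level of 7.58, against 7.36. Soleus WT replicate 4 had a Dnajb1 level of 2.69, against 2.19. Ts1Cje soleus replicate 2 reached 2.53 for Hspa1a and did not pass that limit.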

How the results depend on the processing

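The calls between genotypes (0 of 9 members in each comparison) were the same under all alternatives. Between muscles, the count of members called in Ts1Cje (2) was 1 under normexp, without the filter, with the replicate block across muscles, with the slide as a block and with only the groups compared, between 1 and 2 when arrays were left out, and 0 within slide 1, an alternative chosen after the data were seen. Under quantile normalization it stayed at 2 with other members, since Hsph1 lost its call (0.27, adjusted p = 0.113) and Hspa8 gained one. In WT (2) it was 1 under normexp, where Hsph1 was 0.44 (adjusted p = 0.0885), and with the slide as a block, and 2 whichever array was left out. For Hspa8 in Ts1Cje quantile normalization gave -0.38 (adjusted p = 0.0187), against 0.09. The cause was not tested. Of 954 member values under alternatives 891 kept their direction and side of the threshold, 13 lost a call, 1 reversed with a call and 49 changed sign uncalled.

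In the EDL, where the numbers pair the genotypes, the replicate block on EDL arrays only left 0 members called and 1 gene in all, as without it. In WT the replicate block over arrays 1 to 3 kept 2 members called. In the soleus, where arrays share only a number, the replicate block left 4 genes called of 34 and 0 members, and for the mean effect 5 of 37. No soleus array correlated best with the array of its own number there. In the Ts1Cje muscle comparison the block changed 1 call, Hsph1 (0.37, adjusted p = 0.0656).

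Genes called in all ranged over the alternatives from 1 to 4 (EDL), 1 to 34 (soleus), 0 to 1 (difference), 5 to 46 (mean), 971 to 4274 (muscles, Ts1Cje) and 1364 to 4448 (muscles, WT). Without the filter the median of all genes in the Ts1Cje muscle comparison was 0.14. The number of arrays limits precision.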
